A study of Homo sapiens with 15 samples.

Results

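CpG methylation of the 45S ribosomal DNA unit was compared between 3 libraries taken 7 days after the onset of a chromium exposure and 6 control libraries, out of 15 libraries in the series. The libraries were chosen by their titles, which name either the day or the control. The cells were 1 human lymphoblastoid cell line, a B cell culture immortalised with Epstein-Barr virus, grown in RPMI medium. The day 7 cells had received 5 µM hexavalent chromium, an oxidising and DNA-damaging form of the metal, for 24 hours. The series' design text speaks of measurements before exposure began, but no label says whether each control is such a sample or a culture kept alongside, so what time and culture add to a difference from day 7 cannot be told apart from the exposure. Their titles are numbered in 2 runs of 3, called here the first and the second control set. No genotype, clone or allele is given for any group, and all 9 libraries come from the same line, so nothing here speaks for other donors. The methylation of 1 locus carries no marker by which the labelled cell type could be checked.

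The 45S unit is a tandem repeat on the short arms of the acrocentric chromosomes. RNA polymerase I reads it into a precursor that is cut into the 18S rRNA of the small ribosomal subunit and the 5.8S and 28S rRNAs of the large subunit. The 5' external transcribed spacer (5' ETS) and the internal transcribed spacers (ITS1 between 18S and 5.8S, ITS2 between 5.8S and 28S) are removed during maturation. A cell carries active and silent copies side by side, and dense CpG methylation is a known feature of silent copies. A bulk percentage is therefore an average over many copies and many cells. It cannot tell a shift in every copy from a shift in the mix of copies that were read.

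Of 1378 CpG sites listed in any of the 9 libraries, 867 had at least 10 C or T reads in all 9 and were tested. The other 511 were short of reads in a control library only (151), in a day 7 library only (128) or in both groups (232). Positions count from the start of the precursor transcript on the GenBank reference of the human repeat, with negative numbers upstream, and are not chromosome coordinates. The tested sites run from -982 to 12931: 23 lie upstream, 267 in the 5' ETS, 83 in 18S, 175 in ITS1, 17 in 5.8S, 61 in ITS2 and 241 in 28S. No tested site lies in the core promoter just before the transcription start. Summed over every cytosine in its file, a control library held 48430382 to 81054513 C or T calls, and a day 7 library 28716783 to 95852393. Median coverage of the tested sites was 1001 to 1720 reads in controls and 1007 to 5035 at day 7, but single sites held as few as 10. A site at 50% on 10 reads has a 95% Wilson interval of 23.7% to 76.3%, and on 1000 reads of 46.9% to 53.1%, for counting error alone. The reads carry no molecular identifiers, so reads copied from 1 molecule by PCR count separately.

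Outside CpG, cytosines should read as T after bisulfite treatment, and the reads that stay C at CHG and CHH cytosines (H is A, C or T) measure incomplete conversion. This unconverted share was 1.38%, 1.34% and 0.674% in the first control set, 1.06%, 1.02% and 0.770% in the second, and 8.36%, 7.47% and 6.26% at day 7. The groups did not overlap (two-sided exact permutation p = 0.02381 over 84 assignments of 6 and 3 libraries, the smallest this design can give; adjusted p = 0.02381 over CHG, CHH and both). CHG and CHH rose alike, CHG to 8.87% ± 1.34 (SD, n = 3) from 1.48% ± 0.349 (SD, n = 6) and CHH to 6.55% ± 0.923 from 0.794% ± 0.252. The rise was uneven along the unit. Among the 1229 non-CpG cytosines with 10 reads in every library, 18S averaged 1.39% at day 7 against 0.484% in controls, ITS1 21.1% against 7.77%, and 70 cytosines stood above 50% at day 7 against 7 in controls. For each CpG site the share within 100 bp is given below as its local unconverted share, because a read that escaped conversion counts as methylated at every CpG it covers.

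Averaged over the tested sites, methylation at day 7 was lower than in any control. The mean over the 867 sites was 48.6%, 49.1% and 44.0% in the first control set, 49.1%, 45.05% and 45.3% in the second, and 39.9%, 39.2% and 38.9% at day 7 (39.3% ± 0.540 against 46.9% ± 2.30; exact permutation p = 0.02381). The 3 day 7 libraries lay close together and below every control. By edgeR's quasi-likelihood test with Benjamini-Hochberg adjustment, 559 sites passed an adjusted p of 0.05 (percent called 64.5), 200 higher (23.1) and 359 lower (41.4). At 469 sites (54.1) the groups did not overlap, and 455 of the called sites were among them. Changes were large: 81 sites were called higher and 249 lower by at least 20 points, and 23 and 54 by at least 40 points. Only 18 called sites differed by under 5 points.

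**Figure D1:**
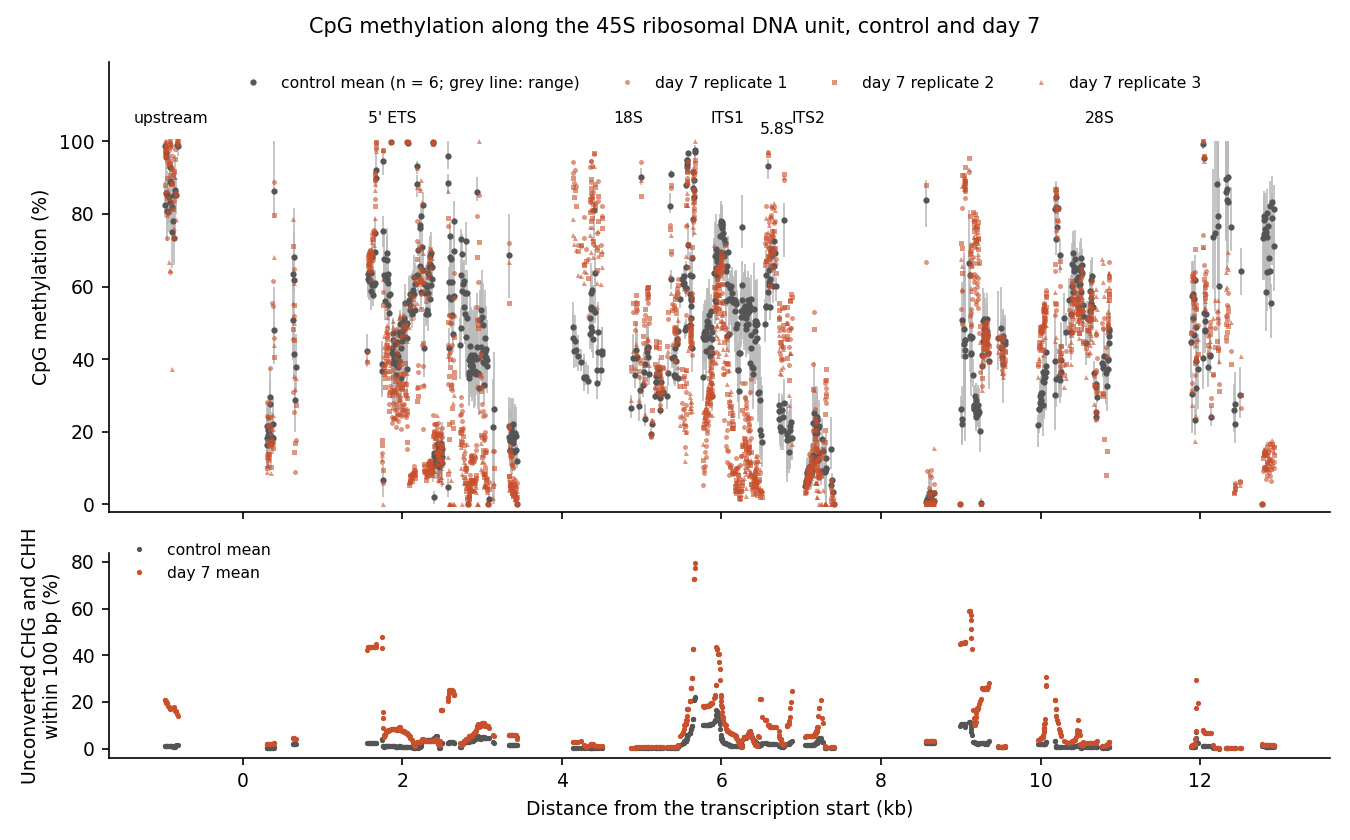
Upper panel: methylation in percent of each of the 867 tested CpG sites against distance from the transcription start in kb (grey: mean and range of 6 controls; orange: the 3 day 7 libraries). Lower panel: the share of unconverted CHG and CHH reads within 100 bp of each site, as group means. Day 7 points lie above the controls in 18S and below them in much of the 5' ETS, in most of ITS1 and at the end of 28S, and the unconverted share peaks in the 5' ETS, ITS1 and the 5' part of 28S.

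More sites were poorly methylated at day 7 and fewer were intermediate. Between 104 and 147 of the 867 sites lay below 20% in a control and between 259 and 297 in a day 7 library, or 14.1% ± 1.76 (SD, n = 6) and 32.3% ± 2.24 (SD, n = 3) of sites (exact permutation p = 0.02381, adjusted p = 0.03571 over 3 classes). Sites between 20% and 80% fell from 77.4% ± 1.80 to 58.4% ± 2.18 of all sites, with the same p-values. Sites above 80% stood at 8.52% ± 1.39 and 9.23% ± 0.901, which did not pass (exact permutation p = 0.476). In ITS1 between 0 and 4 of 175 sites lay below 20% in a control, and between 58 and 63 at day 7. In the 5' ETS the numbers were 35 to 61 and 117 to 149 of 267. At the other end, 3 or 4 of the 83 sites of 18S stood above 80% in a control and between 7 and 22 at day 7.

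Site profiles also parted. Across the 867 sites, Pearson's r between 2 controls was 0.932 to 0.975, between 2 day 7 libraries 0.814 to 0.953, and between a day 7 and a control library 0.475 to 0.643. These values run across sites of the same amplified products, which are not independent. Replicate 3 of day 7 stood apart from the other two in the 5' ETS and in 18S, as the values below show.

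Parts of the unit moved in opposite directions. The spacers before and after 18S lost methylation: the 5' ETS stood at 29.8%, 26.3% and 33.2% at day 7 and between 43.1% and 50.5% in controls, and ITS1 at 35.3%, 37.2% and 33.3% against 52.4% to 61.3%. The rRNA-coding 18S and 5.8S parts gained it: 18S stood at 60.3%, 60.2% and 51.3% against 39.7% to 45.2%, and 5.8S at 59.9%, 59.0% and 58.2% against 38.9% to 46.0%. In each of these 4 parts all 3 day 7 libraries lay on 1 side of all 6 controls (exact permutation p = 0.02381, adjusted p = 0.04167 over 7 parts). In ITS2 the day 7 libraries split, with replicates 1 and 2 above the controls at 22.1% and 20.2% and replicate 3 just below them at 12.4%. Its controls were at 12.5% to 19.2% (exact permutation p = 0.262). The upstream sites, at 93.0%, 91.4% and 86.5% against 84.9% to 90.1%, and 28S, at 45.6%, 46.1% and 45.7% against 43.0% to 49.5%, overlapped their controls (exact permutation p = 0.143 and 0.952).

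**Figure D2:**
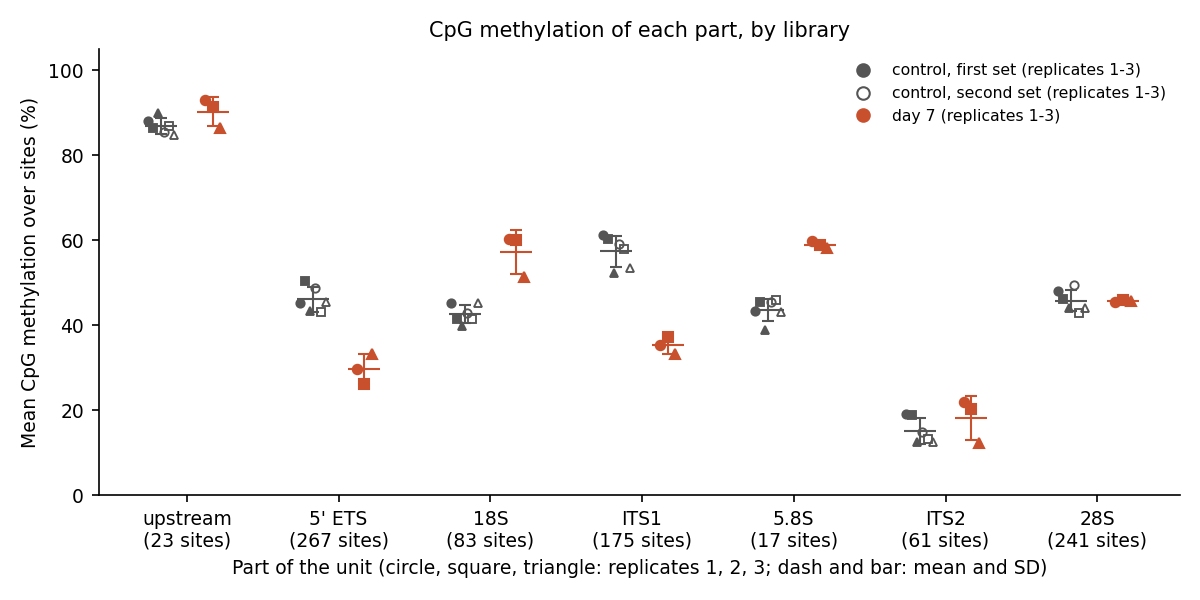
Mean CpG methylation in percent of each part of the unit, 1 point per library (filled grey: first control set; open grey: second control set; orange: day 7), with group means and SD. The 5' ETS and ITS1 lie below every control at day 7, and 18S and 5.8S above. In the other 3 parts the day 7 libraries do not all lie on 1 side of the controls.

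The site counts followed the parts. In ITS1 136 of 175 sites were called lower and 12 higher, and 158 of 267 were lower and 16 higher in the 5' ETS. Higher calls numbered 60 of 83 in 18S, beside 5 lower ones, and 16 of 17 in 5.8S, beside 0. The median difference was -23.3 points in ITS1, -14.98 in the 5' ETS, 10.6 in 18S and 19.6 in 5.8S, beside -5.32 over all 867 sites. Of the 241 sites in 28S, 78 were called higher and 49 lower, with a median difference of 0.0748 points. Calls in ITS2 went both ways (12 up, 11 down, of 61), and the 6 calls among the 23 upstream sites were all higher. Over all 867 sites the percent called was 23.1 higher and 41.4 lower, or 64.5 in either direction. The upstream 26.1 higher was thus near the share over all sites, and the 37.7 called in ITS2 and 52.7 in 28S were below it.

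When reads were summed over a part in place of averaging sites, which weights sites by their coverage, none of the 4 parts passed: the difference was -8.05 points in the 5' ETS (adjusted exact permutation p = 0.167), 7.71 in 18S, -7.427 in ITS1 and 9.17 in 5.8S (0.0833 each). Removing the local unconverted share from each site and library left the direction of all 4 and their call, at -21.3 points in the 5' ETS, -29.7 in ITS1, 14.2 in 18S and 13.7 in 5.8S, and brought 28S to a fall of 4.41 points (adjusted exact permutation p = 0.0333).

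In 18S the rise was strongest in its 5' part. All 31 tested sites from 4135 to 4507, which form a region of their own (region 4 of the 9 regions made by joining sites at most 300 bp apart), were called higher, and at all 31 the groups did not overlap. Their mean was 53.0%, 45.7% and 42.5% in the first control set, 46.0%, 44.5% and 47.0% in the second, and 83.2%, 78.9% and 71.0% at day 7 (exact permutation p = 0.02381, adjusted p = 0.04286 over 9 regions). Replicate 3 was the lowest of the 3 day 7 libraries there, still above every control. Site 4154 showed the largest rise in 18S among called sites with at least 100 reads in every library, from 37.5% to 48.9% in controls, median 41.3%, to 88.5%, 84.8% and 71.7% at day 7 (edgeR log2 odds difference 2.72, adjusted p = 2.68e-05, at least 6119 reads in every library).

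Further along 18S, from 4861 to 5514, 29 of 52 sites were called higher, with a largest rise of 12.6 points, and 5 were called lower. The 65.4% called was near the 64.5% over all sites, and the 55.8% called higher was above the 23.1% over all sites. At 17 of the 52 sites the groups did not overlap, a smaller share than the 54.1% over all sites. Site 5328 was at 51.2%, 52.9% and 42.1% at day 7 against 32.7% to 40.3% in controls (edgeR adjusted p = 0.0132), and was not called without replicate 2 of day 7 (edgeR adjusted p = 0.0636) or against the first or second control set alone (0.0734 and 0.0751). Replicate 3 rose least in this stretch too: of the 60 sites called higher in 18S, it failed to clear the highest control at 19, and replicates 1 and 2 at 0. A few 18S sites went down. Site 5363, at 89.8% to 92.1% in controls, read 87.2%, 87.9% and 74.1% at day 7 (edgeR adjusted p = 0.0113), and site 5359, at 80.2% to 85.9%, read 77.1%, 75.8% and 63.0% (adjusted p = 0.0173); without replicate 3 of day 7 the adjusted p of 5359 was 0.0736. With all 15 libraries in the fit neither was called (0.0723 for 5363 and 0.109 for 5359), nor against the first or second control set alone (0.0569 and 0.0873 for 5363, 0.0971 and 0.0777 for 5359). Other sites did not pass: site 5116 was at 18.6%, 19.5% and 18.7% against 18.5% to 21.0%, and site 4993 at 94.3%, 85.0% and 89.2% against 88.0% to 92.7%.

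Direction turned over a short distance near the 3' end of 18S. From 5375 to 5456, 11 neighbouring sites were all called higher, with a mean of 53.9%, 52.8% and 44.1% at day 7 and 37.3% to 43.5% in controls. The next tested site, 5486, lies 30 bp on, and from there to 5574 in ITS1 16 sites were all called lower, at 49.6%, 55.6% and 43.9% against 70.3% to 72.9%. Site 5514, the last tested site of 18S, fell to 26.4%, 34.8% and 22.3% from 58.6% to 62.8% (edgeR log2 odds difference -2.02, adjusted p = 7.02e-06, at least 17623 reads). The local unconverted share changed at the same place, from a median of 0.280% in controls and 0.706% at day 7 before the turn to 3.41% and 10.8% after it.

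ITS1 lost most in its middle. From 6052 to 6508, 74 neighbouring sites were called lower without a break, the longest such stretch of the unit. Their mean was 53.6%, 54.6% and 43.0% in the first control set, 51.7%, 51.0% and 43.6% in the second, and 14.9%, 13.05% and 13.3% at day 7. The day 7 libraries lay within 2 points of each other there, far below the lowest control. Coverage was lower than at many other sites (median 708 reads in controls and 158 at day 7, with 15 at the thinnest site), and the median local unconverted share was 2.29% in controls and 5.28% at day 7. Site 6173, the largest fall of ITS1 with at least 100 reads, went from 44.6% to 64.2% in controls, median 57.8%, to 8.62%, 3.70% and 4.65% (edgeR log2 odds difference -4.50, adjusted p = 1.27e-06, at least 172 reads).

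A second turn lay at the 3' end of ITS1. Site 6547 follows 6508 by 39 bp with no tested site between, and from 6547 to 6667 in 5.8S 19 sites were all called higher, at 76.1%, 71.0% and 76.7% against 61.3% to 65.4%. Median coverage of this stretch was 95744 reads in controls and 107255 at day 7, far above that of the stretch before it. Site 6547 itself rose to 71.9%, 66.0% and 67.4% from 44.7% to 56.7% (edgeR adjusted p = 0.00193). Site 6582 of ITS1 was called on a small difference, at 97.1%, 96.2% and 96.9% against 89.5% to 95.1% (edgeR adjusted p = 0.00644), and was not called against the first control set alone (0.0633). Site 5945 was at 60.3%, 64.8% and 49.0% against 55.7% to 70.8% and did not pass. Near it 42.8% of non-CpG reads were unconverted at day 7 against 15.7% in controls, and with that share removed it was called lower (edgeR adjusted p = 6.95e-05).

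In 5.8S the higher level held in each day 7 library. Site 6715 was at 51.2%, 53.6% and 46.5% at day 7 and at 21.9% to 29.2% in controls (edgeR log2 odds difference 1.56, adjusted p = 8.34e-05). Site 6645 differed by 7.27 points (adjusted p = 0.0279) and site 6679 by 5.88 points (adjusted p = 0.0704), on at least 53592 reads in every library. Site 6645 was not called when the local unconverted share was removed (edgeR adjusted p = 0.0904), nor without first-set control replicate 2 (0.0515), day 7 replicate 1 (0.0940) or day 7 replicate 3 (0.0685), nor against the first or second control set alone (0.0560 and 0.178). Site 6679 was called with all 15 libraries in the fit (0.0470). From 6715 in 5.8S to 6884 in ITS2, 20 neighbouring sites were all called higher and together averaged 48.4%, 51.8% and 42.6% at day 7 against 17.2% to 29.3% in controls. The first tested site of ITS2, 6782, was at 47.9%, 54.3% and 45.9% against 21.1% to 34.5% (edgeR adjusted p = 0.000830). Sites 7089 and 7126, deeper in ITS2, differed by -0.161 and -0.193 points from controls at 6.26% ± 2.29 and 10.4% ± 3.85 (SD, n = 6) and were not called. With the local unconverted share removed both were called lower (edgeR adjusted p = 1.79e-05 and 0.0359).

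The 5' ETS held a stretch where 1 day 7 library did not share the fall of the others. Over the 22 called sites from 2252 to 2366, day 7 replicates 1 and 2 stood at 11.8% and 12.2%, while replicate 3 stood at 63.2%, inside the control range of 57.8% to 65.2%. The median local unconverted share there was 3.62% in controls and 3.28% at day 7. The 16 sites from 2080 to 2198 showed the same split, at 21.8%, 18.7% and 61.5% against 60.1% to 66.9%, as did the 9 sites from 2014 to 2057, at 24.5%, 30.6% and 48.0% against 36.7% to 52.6%. Site 2080, with at least 13660 reads in every library, read 5.96%, 5.42% and 48.9% at day 7 against 51.3% to 62.8% (edgeR adjusted p = 0.00346, SD 25.0 at day 7). In these stretches edgeR called the sites lower although the mean of 1 of the 3 day 7 libraries stayed within the control range. Of all 158 sites called lower in the 5' ETS, replicate 3 was not below the lowest control at 46, replicate 1 at 13 and replicate 2 at 2.

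In the next stretches along the spacer all 3 day 7 libraries lay below every control, with replicate 3 the lowest. From 2595 to 2810, 25 called sites averaged 28.8%, 20.8% and 10.5% against 54.5% to 63.8%, on a median of 905 reads in controls and 82 at day 7. From 2830 to 2930, 23 called sites averaged 14.01%, 8.27% and 4.97% against 32.4% to 53.4%, on medians of 5415 and 6751 reads. Before the split stretches, from 1761 to 1840, 16 called sites averaged 41.5%, 38.1% and 45.4% against 57.0% to 68.1%. The spacer's rises were few. Site 1653 went from 57.1% to 64.6% in controls to 84.04%, 82.3% and 78.8% (edgeR adjusted p = 5.84e-05), but 43.5% of non-CpG reads near it were unconverted at day 7 and 2.42% in controls. The first region of the spacer, 296 to 659, stood at 36.1%, 27.3% and 29.5% against 27.7% to 40.2% and did not pass (exact permutation p = 0.31), with 2 of its 22 sites called.

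Some sites were fixed at an end of the range. Site 2378 read 99.7% to 99.9% in all 9 libraries, and site 3439 read 0 methylated of 4515 control reads and of 2853 day 7 reads, which allows up to 0.0664% and 0.105% by read counting alone. The local unconverted share near site 3439 averaged 1.49% in controls and 3.97% at day 7, above those limits. Why site 3439 held fewer C reads than the non-CpG cytosines near it was not tested. In all, 5 sites were above 99% and 6 below 1% in every library. Of the 5 high sites 3 were called, on differences of under 1 point, and of the 6 low sites 0. The positions of the primers are not given in the sources used here, so sites under a primer could not be left out.

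**Figure D3:**
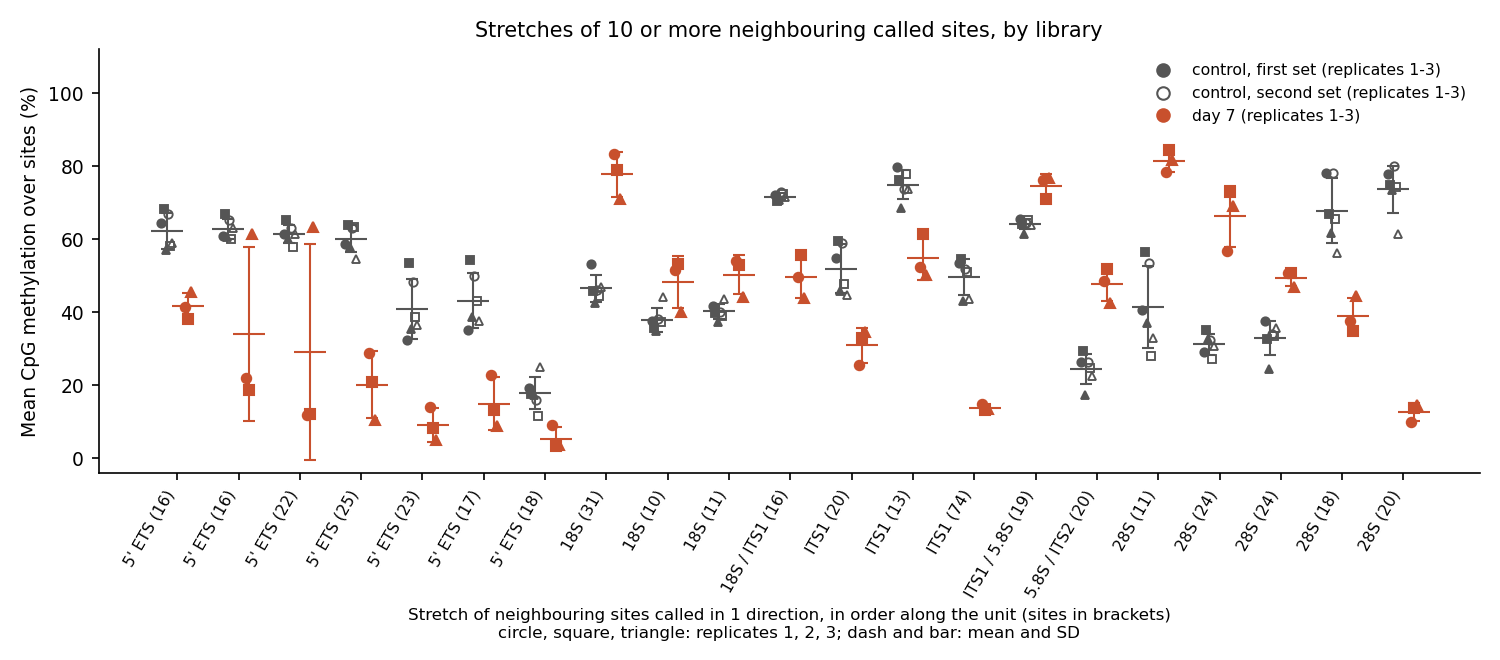
Mean CpG methylation in percent of each of the 21 stretches of 10 or more neighbouring sites called in 1 direction, in order along the unit, 1 point per library with group mean and SD. In 2 stretches of the 5' ETS the third day 7 library lies at the control level, 61.5% and 63.2%, while the other two lie between 11.8% and 21.8%.

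These stretches hold most of the calls. Sites were grouped wherever neighbours in a region were called in 1 direction, and 21 such stretches had 10 sites or more, 13 lower and 8 higher, with 448 of the 559 called sites. Neighbouring sites are read on the same molecules, so a stretch is closer to 1 observation per library than to as many as it has sites.

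28S carried both directions, sorted by place. At its 3' end from 11892 to 12931 (region 9), 38 of 64 sites were lower (59.4%, beside 41.4% over all sites) and 7 higher (10.9%, beside 23.1%). The region mean was 36.1%, 35.8% and 36.9% at day 7 against 53.5% to 68.0% (adjusted exact permutation p = 0.04286 over 9 regions). The last 20 sites, from 12794 to 12931, were all called lower and had the deepest fall among the stretches of 10 or more sites: 77.9%, 74.7%, 73.4%, 79.97%, 74.4% and 61.4% in the 6 controls and 9.81%, 13.6% and 14.5% at day 7. The median local unconverted share there was 0.898% in controls and 1.47% at day 7. Site 12907 read 12.3%, 16.6% and 17.6% at day 7 and 69.6% to 90.3% in controls, median 84.4% (edgeR log2 odds difference -4.88, adjusted p = 1.13e-06), and site 12931 read 11.6%, 15.8% and 16.4% against 68.3% to 88.0% (-4.76, 6.44e-07), on at least 10733 and 10718 reads in every library. Replicate 3 of the second control set was the lowest control at both. Some sites of the same region did not pass: 11895, near its 5' edge, was at 33.3%, 31.2% and 27.3% against 19.6% to 36.3% (edgeR adjusted p = 0.942), and 12782, just before the last stretch, was at most 0.0605% in every library. The local unconverted share near 12782 averaged 1.11% in controls and 1.92% at day 7, above the site's own values, for a reason that was not tested.

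The 2 regions of 28S from 8993 to 10864 had mostly higher calls. Region 7, from 8993 to 9561, stood at 53.2%, 61.6% and 57.9% at day 7 against 32.0% to 43.5% (adjusted exact permutation p = 0.04286), with 35 of 63 sites higher (55.6%, beside 23.1% over all sites) and 0 lower. Its local unconverted share was 22.6% to 27.7% at day 7 and 1.13% to 3.33% in controls. With that share removed the difference was 7.98 points and did not pass (adjusted exact permutation p = 0.129). At the only 1 of its sites with 100 reads in all 9 libraries it was -0.275 points (adjusted exact permutation p = 0.833), and at the 9 sites with under 2% unconverted nearby it was -2.98 points (adjusted exact permutation p = 0.5) with 0 sites called. Region 7 also held 12.7%, 11.2% and 13.04% of the tested CpG reads at day 7 and at most 0.153% in a control. Region 8, from 9972 to 10864, was at 53.7%, 49.8% and 51.5% against 44.5% to 52.7% and did not pass (exact permutation p = 0.119). Of its 97 sites, 36 were higher (37.1%, beside 23.1% over all sites) and 4 lower (4.12%, beside 41.4%). In either direction 41.2% were called, below the 64.5% over all sites. Site 9995 there was at 47.7%, 46.7% and 42.4% against 22.1% to 31.3% (edgeR adjusted p = 0.00141). Region 6, from 8565 to 8666, had a low mean in both groups (6.19% ± 0.827 in controls and 4.43% ± 3.07 at day 7, exact permutation p = 0.357). Its largest difference at a site, -32.3 points, was not called. Sites called lower numbered 7 of 17 (41.2%), near the 41.4% called lower over all sites. Those were 4 sites from 8632 to 8644 (0.697% in controls, 0% at day 7) and 3 from 8583 to 8594 (1.07% and 0%). Their day 7 medians were 37 and 23 reads, against 3820.5 and 2254 in controls. The region had 0 sites with 100 reads in every library. At a single site, 0% on so few reads cannot be told from these control levels.

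The spread of reads over the unit differed with the group. Besides region 7, region 9 held 17.5%, 11.3% and 15.5% of reads at day 7 against 2.07% to 8.94%, and region 6 0.00174%, 0.0637% and 0.00232% against 0.115% to 0.375%. Each of the 3 had an exact permutation p of 0.02381, which is 0.07143 after adjustment over 9 regions. What part these shifts have in the methylation differences was not tested. The labels speak of 12 libraries in a sequencing mix but do not say which, so a difference in preparation between day 7 and the controls cannot be told apart from the exposure.

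18S and the end of 28S also moved in opposite directions at the sites where conversion was good. At 125 sites all 9 libraries had under 2% unconverted reads within 100 bp, and 81 of them were called (64.8%, beside the percent called of 64.5 over all sites), 41 higher and 40 lower. They lie unevenly: 60 in 18S, 52 in 28S, 11 in ITS2, 1 in the 5' ETS, 1 in 5.8S and none upstream or in ITS1. In 18S, where 40 rose and 2 fell, the mean was 53.9%, 55.0% and 45.9% at day 7 against 38.1% to 43.9% in controls. In 28S 34 fell, all of them in region 9, and 0 rose. Of the 52 sites only 22 had 100 reads in every library, and of the 37 in region 9 only 19. Coverage was thin in the region 9 stretch from 12167 to 12517, with 18 sites called lower. Its median was 21.25 reads in controls and 512 at day 7, with 10 at the thinnest site. The mean of the 52 was 31.2%, 29.0% and 36.1% against 52.1% to 67.5% (exact permutation p = 0.02381, adjusted p = 0.03968 over 5 parts, for 18S and for 28S). Sites 4448 and 4507 of 18S, with at most 1.71% unconverted nearby in any library, rose by 35.8 and 34.8 points (edgeR adjusted p = 2.90e-05 and 1.96e-05). The 1 such site of 5.8S, 6772, rose from 15% to 26.2% in controls to 39.9%, 43.3% and 37.8% (adjusted p = 0.000553).

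**Figure D4:**
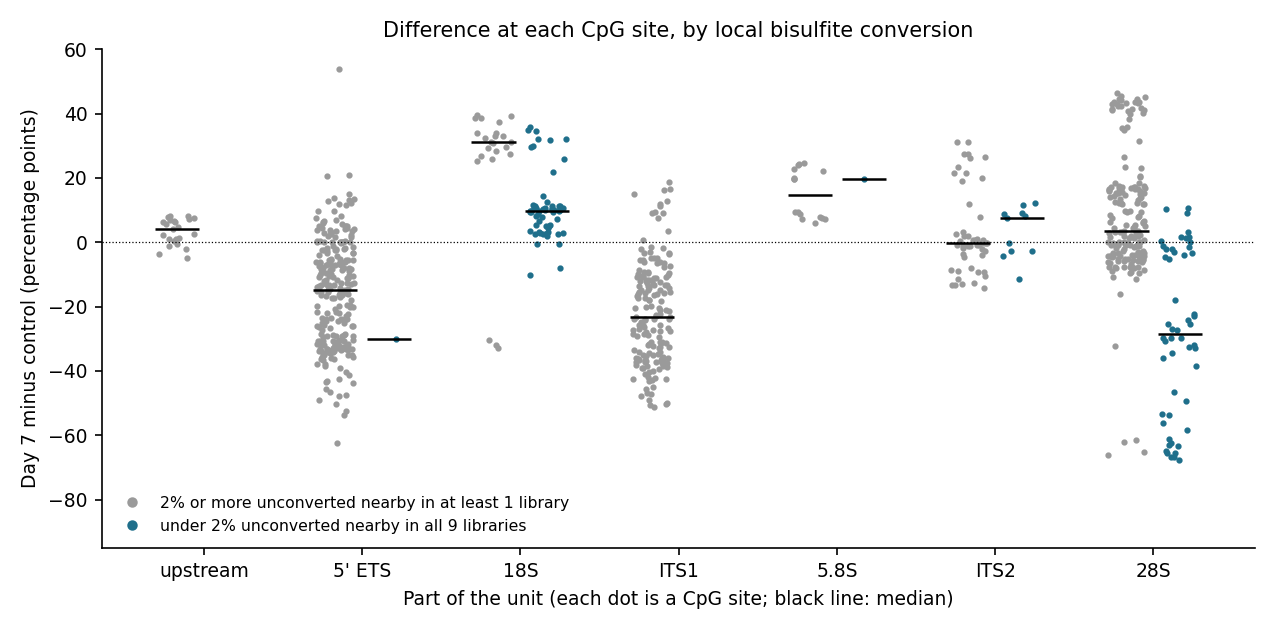
Day 7 minus control in percentage points for each CpG site by part of the unit, split by whether the unconverted share within 100 bp was under 2% in all 9 libraries (blue) or not (grey), with medians. Well-converted sites of 18S lie mostly above 0 and those of 28S mostly below, and ITS1 and the upstream part have none.

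For the spacers this limit left almost nothing to examine, so a limit of 5% was added after the data were seen. It kept 66 sites of the 5' ETS, 37 lower and 0 higher, and 9 of the 66 had groups that did not overlap, and 19 of ITS1, all 19 lower with groups that did not overlap (median difference -41.9 points). Of 80 such sites in 18S 60 were called higher and 2 lower, and of 107 in 28S 13 and 40. Over all 291 sites within this limit 62.5% were called, 27.8% higher and 34.7% lower. The share called was 56.1% in the 5' ETS and 49.5% in 28S, below that, and 77.5% in 18S and 100% in ITS1, above it. At 133 of the 291 sites the groups did not overlap. The 9 of 66 in the 5' ETS were a smaller share than this, and the 19 of 19 in ITS1 a larger one. Across all 867 sites the rise in local unconverted share and the difference in CpG methylation had Pearson's r = 0.249 and Spearman's rho = 0.219, with neighbouring sites sharing reads. Within parts, rho was 0.808 in ITS1, 0.631 in 28S, 0.618 in 18S (where Pearson's r was 0.0954) and 0.262 in the 5' ETS. It was 0.204 upstream, -0.0538 in ITS2 and -0.637 in 5.8S. What part conversion has in the differences within a part was not tested.

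Day 7 was then compared by how methylated a site had been to start with. To keep the grouping apart from the comparison, sites were grouped by their mean in the first control set, and day 7 was set against the second set only. The 312 sites that started at 40% to 60% were at 52.5%, 46.5% and 47.0% in the second set and at 38.2%, 37.4% and 38.1% at day 7. The 162 sites that started at 60% to 80% were at 67.2% ± 2.38 (SD, n = 3) and 49.8% ± 2.36, and the 76 at 80% or above at 87.9% ± 2.59 and 76.0% ± 0.963. The 198 sites that started at 20% to 40% stood higher at day 7, at 31.7% ± 1.49 and 35.8% ± 1.68, and the 119 below 20% stood at 10.7% ± 1.67 and 11.4% ± 3.76. The difference of 4.17 points at 20% to 40% was 0.325 points at sites with 100 reads in every library and 0.527 points with the local unconverted share removed. In the upper 4 levels the groups did not overlap (exact permutation p = 0.1, the smallest that 3 against 3 libraries allow, adjusted p = 0.125), and in the lowest they did.

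**Figure D5:**
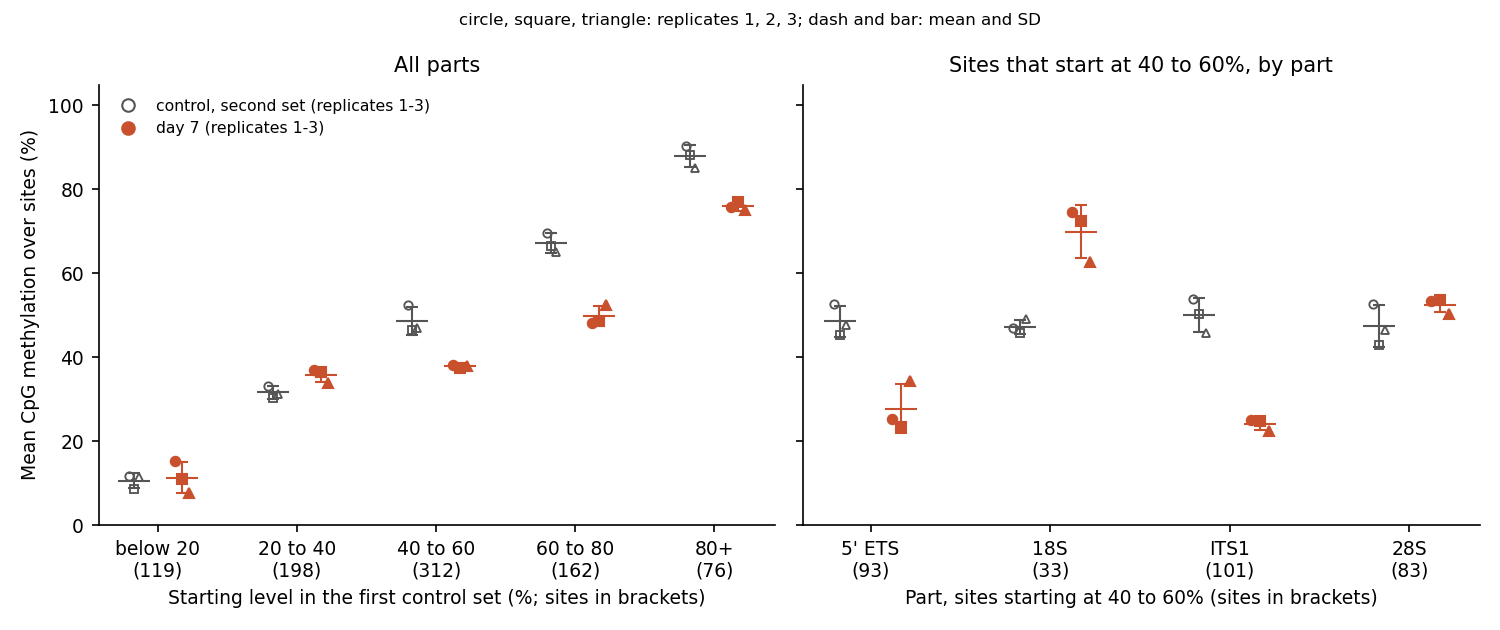
Mean CpG methylation in percent in the second control set (open grey) and at day 7 (orange), 1 point per library with mean and SD. Left: all sites by starting level in the first control set. Right: only the sites that started at 40% to 60%, by part, where 18S lies above its controls and the 5' ETS and ITS1 lie below them.

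Sites of equal starting level went different ways in different parts. Among those that started at 40% to 60%, 33 sites of 18S were at 47.3% ± 1.67 (SD, n = 3) in the second set and 70.0% ± 6.27 at day 7, while the 101 sites of ITS1 were at 53.8%, 50.5% and 45.9%, and at 25.04%, 24.8% and 22.6% at day 7. The 93 such sites of the 5' ETS were at 52.7%, 45.4% and 47.6%, and at 25.4%, 23.5% and 34.4%, and 83 of 28S at 52.8%, 42.9% and 46.5%, and at 53.4%, 53.6% and 50.4%. The first 3 parts did not overlap their controls, and 28S did. In a fit of day 7 against the second set alone (percent called 42.9), 22 of the 33 sites of 18S were higher and 2 lower, and 72 of the 101 of ITS1 were lower and 4 higher. Within 28S the direction differed by level, a difference that was not tested. Sites starting at 20% to 40% stood at 48.8% ± 1.49 against 31.9% ± 1.57, and sites starting at 80% or above at 49.1% ± 1.18 against 82.7% ± 8.23. At day 7 the 4 levels of 28S from 20% up had means between 45.8% and 52.5%. Level was not separated from place or conversion here. In the full fit, 35 and 36 of the 78 higher calls of 28S lay in regions 7 and 8, and 38 of its 49 lower calls in region 9. The local unconverted share of region 7 averaged 25.7% at day 7 and 2.31% in controls. Under 2% unconverted, 0 of 52 sites of 28S were called higher and 34 lower.

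Sites that began alike also spread apart. Over the 312 sites that started at 40% to 60%, the SD between sites was 6.88 points in the second set's mean and 22.2 points at day 7. At day 7 37 of them were below 10%, against 0 in the second set. Of the 198 that started at 20% to 40%, 42 were below 10% at day 7 and 0 in the second set.

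Upstream of the transcription start, from -982 to -820, sites were highly methylated in both groups. Site -911 was called higher, at 98.6%, 93.7% and 100% against 84% to 91.5% (edgeR adjusted p = 0.00653; 0.0604 and not called against the second control set alone), where the local unconverted share averaged 17.2% at day 7 and 0.928% in controls. Site -982 was at 97.5%, 97.5% and 100% against 98.1% to 100%, and site -954 at 73.3%, 84.3% and 100% against 76.9% to 91.7%. Replicate 3, with the lowest unconverted share of the 3 in this region (3.77%, against 20.8% and 27.99%), also had the lowest region mean, 86.5%. Replicate 2 had the highest share, 27.99%, but its mean of 91.4% was below the 93.0% of replicate 1, whose share was 20.8%. A link between share and mean was not tested.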

How the data were processed

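Bisulfite PCR products of genomic DNA were sequenced as paired ends, 1 library per sample, per the labels' protocols. Trim Galore, methylKit, BSMAP 2.90 and SAMtools 1.3.1 appear in the submitters' processing notes, with no role or order given, and the primer positions are not given in the sources used here. The deposited counts per cytosine (C reads, T reads and their sum) were used as raw counts, and the deposited methylated fraction equals C reads over that sum. CpG sites with 10 reads in all 9 libraries were fitted with edgeR 4.0.16 (R 4.3.3) as methylated and unmethylated counts with an effect per library and a group term, called at an adjusted p below 0.05. Percent values were averaged over sites in each library, and exact permutation tests (two-sided) were run on these means. limma 3.58.1 served as an alternative. Both were checked on simulated counts. The lowest chi-square per degree of freedom of coverage between libraries of a group was 519, so none was taken for a copy. The parts' layout on the GenBank repeat was added from outside the files and could not be checked against the repeat's record, so part means and sites near a boundary rest on it. Other choices tried were coverage minimum, control set, conversion, thinning and leaving out libraries. No label ties replicates to separate cultures, so p-values measure the spread between libraries, which may be technical. The labels speak of 2 biological replicates. Named sites are, per part, the largest called rise and fall with 100 reads in every library and groups that do not overlap, and the 2 smallest differences, and over all parts up to 5 of the largest of each direction under 2% unconverted, at most 2 per region, which 4 of each met. Stretches and the sites named in them beyond this were chosen after their values were seen. Members and lists were chosen with earlier results of these data known.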

Additional observations from a re-analysis of the deposited data

Results flagged for a closer look

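Among 64 groups of 6 control values examined, 5 held a library far from its fellows by Dixon's test, and chance alone flags about 1 group in 20. At site 12907 of 28S the lowest control was at 69.6%, with the next at 83.2%. At site 11895 of 28S the lowest was at 19.6%, with the next at 30.6%. Region 3 of the 5' ETS held 29.5% of the tested CpG reads in the lowest control and 52.3% in the next, and region 8 of 28S held 6.17% in the highest and 3.49% in the next. All 4 values belong to replicate 3 of the second control set. At site 12782 of 28S the highest control was at 0.0605%, with the next at 0.0218%, in replicate 1 of the first set.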

How the results depend on the processing

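The full fit called 559 sites (200 higher, 359 lower), and refits on other sites or libraries called 340 (124 and 216) with 100 reads in every library, 85 (45 and 40) under 2% unconverted within 100 bp and 86 (43 and 43) within 30 bp, and 372 (130 higher) against the second control set alone. Of the 85, 80 were among the 559, and of the 86, 82. A limit of 5%, chosen after seeing the data, kept 182 of the 559 (81 and 101). The replicate block gave 563 calls (192 higher, 371 lower), but no label says whether numbers pair the libraries. Deviations of same-numbered libraries correlated at -0.155 to 0.0949 and of other-numbered ones at -0.179 to 0.173. With 3 libraries per set these values cannot decide whether the libraries are paired. Leaving out 1 library gave 446 to 565 calls. No site was called in opposite directions by any setting.

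With reads summed over sites, 4 parts no longer passed: -8.05 points in the 5' ETS, 7.71 in 18S, -7.427 in ITS1 and 9.17 in 5.8S. The same held for region 3 (-8.08), region 4 (33.8), region 7 (10.2) and region 9 (-37.9), and region 5 reversed to 4.93. Regions 4 and 9 differed by more than in the means over sites (31.3 and -24.8), with an adjusted exact permutation p of 0.0714 each. Removing the local unconverted share left regions 3, 4, 5 and 9 at -22.8, 31.03, -15.7 and -26.3 (adjusted p = 0.0536 by exact permutation), region 7 at 7.98, and 28S called at -4.41. By starting level it gave -1.85, 0.527, -16.3, -24.05 and -15.96 points from lowest to highest, and it took the log2 odds differences of sites 7089 and 7126 from 0.0064 and 0.029 to -2.56 and -0.80, both then called lower. Under 2% unconverted, 28S was called at -28.3, the 5' ETS and region 3 (1 site) were at -30.1, regions 4 and 9 at 29.4 and -39.96, and regions 5 and 7 reversed to 6.39 and -2.98. With 100 reads 28S was called at -7.99, region 7 reversed to -0.275 on 1 site, and the 20% to 40% level stood at 0.325. Grouping by the second set gave -1.17 below 20%. At sites of at least median coverage, a choice made after seeing the data, regions 6 and 8 were called at -0.697 and 6.05. The causes were not tested.

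Leaving out 1 library at a time moved 18S to between 13.02 and 17.5 points, region 6 to between -2.79 and 0.00600, the level below 20% to between -1.26 and 2.48, the rise in unconverted share to 6.84 to 8.14 points (CHG), 5.28 to 6.20 (CHH) and 5.82 to 6.88 (both), and that in region 7's read share to 11.9 to 12.8.

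Counting error is widest at sites near 10 reads. Settings that left out a library or a control set were judged by size for means over sites, since 6 against 2 and 3 against 3 libraries cannot pass. Leaving out 1 control can reach p = 0.0357, which the overall mean and the unconverted shares did each time by exact permutation.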
